A study of Mus musculus with 6 samples.

Results

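The regions described here are distal H3K27ac peaks of LPS-treated macrophages whose summit lay in an H3K4me1 peak of the LPS library and in no H3K4me1 peak of the PBS library. They are called LPS-only summits below. A peak was distal when it did not overlap the 1000 bp on either side of any annotated transcription start site (TSS). Of 4200 H3K27ac peaks under LPS, 2959 were distal, and 289 of these were LPS-only summits (9.77%). The remaining distal summits lay in an H3K4me1 peak of both libraries (754, called shared), of the PBS library alone (220, called PBS-only) or of neither (1696, called unmarked). The 4 peak lists held 142059 peaks in all. The LPS-only summits were chosen by the H3K27ac and H3K4me1 peak positions measured in these libraries, so their H3K4me1 is given as a description.

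The cells were bone marrow-derived macrophages (BMDMs) of C57BL/6 mice, exposed to lipopolysaccharide (LPS), an outer membrane molecule of bacteria, or to PBS for 1 h. Chromatin was profiled by CUT&RUN, in which an antibody tethers a nuclease that releases the DNA under a histone mark for sequencing. Each group was 1 library: H3K27ac and H3K4me1 after LPS, the same 2 marks after PBS, and a control IgG library for each treatment, which was not analysed here. There were no replicates, so every value describes single libraries, no test between treatments could be run, and the intervals given cover counting error only.

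The depth recovered from the deposited values was 5.66e+06 fragments for LPS H3K27ac and between 6.87e+06 and 7.21e+06 for the other 3 libraries. H3K4me1 lists were long, with 73049 peaks under LPS and 64758 under PBS, whereas the PBS H3K27ac list held 52 peaks. Of 34 macrophage identity genes, 33 had an LPS H3K4me1 peak and 31 a PBS H3K4me1 peak within 10 kb of the TSS. The same held for 7 and 4 of 11 lymphocyte genes, 5 and 5 of 10 granulocyte genes, 2 and 2 of 10 fibroblast genes and 8 and 6 of 30 genes of other tissues. The part of other cell types in the LPS-only summits was not tested.

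Enhancers are stretches of DNA, often far from a gene, that raise its transcription when transcription factors bind them. H3K4me1, histone H3 with a single methyl group on lysine 4, marks enhancers whether or not they are in use, and H3K27ac, acetylation of lysine 27, marks enhancers and promoters in use. In macrophages most enhancers are set up in advance by the lineage factor PU.1 together with AP-1 and C/EBP proteins. LPS, through the receptor TLR4, sends NF-kB and further AP-1 proteins to them, and some enhancers gain H3K4me1 only after such a stimulus.

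The DNA around 9 LPS-only summits shows what these regions look like. All runs are the plus strand of GRCm38 (RefSeq GRCm38.p6), 5′ to 3′. Capitals mark words of 8 simplified binding motifs, searched on both strands: AGGAAGT (PU.1 and other ETS factors), TGANTCA (AP-1), TTGCNNAA (C/EBP), GGANTTNCC (NF-kB), GAAANNGAA (IRF), GGAANNGAA (PU.1 with IRF), TGACGTCA (CRE, bound by ATF and CREB) and TCACGTG (E-box). The IRF and PU.1 with IRF words can overlap each other. The first 4 runs are 300 bp long and hold the summit with the nearest word. They are the LPS-only summits that ranked 1, 2, 4 and 9 for H3K27ac significance, the last with an NF-kB word. Summits are base 101 in the first pair, base 200 in the third and base 181 in the fourth.
Pim1 summit (chr17:29488884-29489183): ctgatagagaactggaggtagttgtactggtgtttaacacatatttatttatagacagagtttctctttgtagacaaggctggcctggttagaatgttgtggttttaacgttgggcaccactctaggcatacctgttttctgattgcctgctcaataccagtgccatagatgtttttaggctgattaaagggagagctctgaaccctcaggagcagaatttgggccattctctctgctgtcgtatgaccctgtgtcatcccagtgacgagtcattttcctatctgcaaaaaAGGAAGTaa
Ctsb summit (chr14:63130561-63130860): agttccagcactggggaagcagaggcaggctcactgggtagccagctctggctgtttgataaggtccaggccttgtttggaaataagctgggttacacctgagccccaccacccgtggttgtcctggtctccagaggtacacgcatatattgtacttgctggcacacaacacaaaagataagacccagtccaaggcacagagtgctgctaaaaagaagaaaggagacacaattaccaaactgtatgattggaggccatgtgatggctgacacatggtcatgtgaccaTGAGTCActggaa
Tnfaip2 summit (chr12:111437441-111437740): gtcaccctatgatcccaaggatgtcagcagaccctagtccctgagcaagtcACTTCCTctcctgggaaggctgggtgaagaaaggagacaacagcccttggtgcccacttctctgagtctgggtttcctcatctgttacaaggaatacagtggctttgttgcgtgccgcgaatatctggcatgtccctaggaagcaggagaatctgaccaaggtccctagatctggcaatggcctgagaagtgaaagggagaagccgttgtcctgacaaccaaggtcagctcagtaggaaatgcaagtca
Gm28981 summit (chr1:64301319-64301618): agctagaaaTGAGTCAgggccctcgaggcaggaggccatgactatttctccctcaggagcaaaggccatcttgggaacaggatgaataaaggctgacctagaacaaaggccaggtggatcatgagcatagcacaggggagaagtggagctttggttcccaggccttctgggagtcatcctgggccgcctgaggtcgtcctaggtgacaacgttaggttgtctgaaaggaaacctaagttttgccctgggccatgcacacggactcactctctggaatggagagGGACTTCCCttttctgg
Each of these words lay more than 90 bp from the acetylation summit. The AGGAAGT of Pim1 was 194 bp downstream of the summit, the TGAGTCA of Ctsb 190 bp downstream, and the ACTTCCT of Tnfaip2, which is AGGAAGT on the minus strand, 145 bp upstream. The Gm28981 summit had TGAGTCA 168 bp upstream and GGACTTCCC 107 bp downstream. Among the 10 LPS-only summits of highest H3K27ac significance, 9 had a word within 200 bp, the nearest at 92 bp. Over all 289 LPS-only summits, 35.3% had no word within 200 bp, beside 40.6% of all 4200 H3K27ac summits. A word within 50 bp was found at 48 of the 289. That count was not made over all H3K27ac summits, so it cannot be compared.

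The next 5 runs are 201 bp long, with the summit at base 101. Mcl1 and Tnfaip3 are shown as LPS response genes, Trp53 as the summit farthest from any PBS H3K4me1 peak, and Ccnl1 and Dusp22 because an NF-kB or AP-1 word lay near the summit; the last 2 were picked after their values were seen.
Mcl1 summit (chr3:95657269-95657469): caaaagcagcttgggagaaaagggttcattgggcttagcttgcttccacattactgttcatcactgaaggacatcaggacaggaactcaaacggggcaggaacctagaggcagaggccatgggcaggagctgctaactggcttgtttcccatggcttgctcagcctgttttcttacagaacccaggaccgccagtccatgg
Tnfaip3 summit (chr10:19061392-19061592): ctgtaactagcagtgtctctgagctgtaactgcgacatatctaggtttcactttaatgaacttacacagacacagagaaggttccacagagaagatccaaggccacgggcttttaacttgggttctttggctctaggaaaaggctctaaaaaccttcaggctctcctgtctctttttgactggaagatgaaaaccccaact
Trp53 summit (chr11:69585934-69586134): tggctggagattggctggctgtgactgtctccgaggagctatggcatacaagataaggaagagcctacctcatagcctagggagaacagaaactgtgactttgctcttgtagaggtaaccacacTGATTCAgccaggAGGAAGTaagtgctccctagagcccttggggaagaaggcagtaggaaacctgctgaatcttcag
Ccnl1 summit (chr3:65974437-65974637): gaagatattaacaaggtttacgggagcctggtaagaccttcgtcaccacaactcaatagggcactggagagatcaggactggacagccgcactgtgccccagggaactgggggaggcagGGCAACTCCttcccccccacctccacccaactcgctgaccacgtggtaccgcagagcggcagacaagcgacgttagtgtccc
Dusp22 summit (chr13:30696423-30696623): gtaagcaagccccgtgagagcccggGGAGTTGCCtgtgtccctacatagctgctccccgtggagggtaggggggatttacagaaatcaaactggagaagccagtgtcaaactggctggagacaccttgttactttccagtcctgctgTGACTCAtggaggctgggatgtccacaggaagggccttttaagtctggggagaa
The Mcl1 and Tnfaip3 runs held no word of the list. The Trp53 run held TGATTCA 27 bp and AGGAAGT 40 bp from the summit, both downstream. The Ccnl1 run held GGCAACTCC, the minus-strand form of the NF-kB word, 23 bp from the summit, and the Dusp22 run held TGACTCA 50 bp downstream and GGAGTTGCC 71 bp upstream. A match is a description of letters and does not show that a factor was bound.

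The LPS-only summit with the highest H3K27ac significance was chr17:29488894-29489067, 1769 bp from the TSS of Pim1, a serine/threonine kinase gene induced by many cytokines, and inside an intron of the non-coding gene Gm26885. It had a fold enrichment (fragment coverage at the summit over the local background) of 11.8 and a −log10 q of 16.1, with 20 fragments at the summit, and ranked 16 of 4200. The H3K4me1 peak around it was small, 345 bp wide with 13 fragments, and the nearest PBS H3K4me1 peak was 1756 bp away.

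The second, chr14:63130294-63130769, lay in an intron of Ctsb, the lysosomal protease cathepsin B, with a fold enrichment of 12.0 and 19 fragments. It had LPS-only summits on both sides, at chr14:63129265-63130100 with a fold enrichment of 7.49 and at chr14:63130991-63131251 with 4.99. All 3 were free of PBS H3K4me1 for at least 1322 bp. The one with a fold enrichment of 7.49 lay only 6 bp inside the edge of its LPS H3K4me1 peak. Unmarked summits with fold enrichments of 7.90 and 6.39 lay farther out on either side.

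The third, chr1:91954633-91954955, was in an intron of Hdac4, a histone deacetylase gene, at a fold enrichment of 10.7. The fourth, chr12:111437381-111437934, was intergenic, 4829 bp from the TSS of Tnfaip2, a gene named for its induction by TNF, at 10.3. PBS H3K4me1 began 239 bp from the Hdac4 summit and 98 bp from the Tnfaip2 summit, far closer than at Pim1 or Ctsb.

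The other 6 of the top 10 had H3K27ac fold enrichments between 8.73 and 9.92. They lay 19359 bp from Plin2 (a lipid droplet coat protein), 25183 bp from Sulf2 (an extracellular sulfatase) and in introns of Irgm2 (an interferon-inducible GTPase), St3gal6 (a sialyltransferase), Rassf2 and the non-coding gene Gm28981. At 5 of these 6, PBS H3K4me1 lay between 19 and 107 bp from the summit, and at Irgm2 it lay 2751 bp away.

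**Figure D1:**
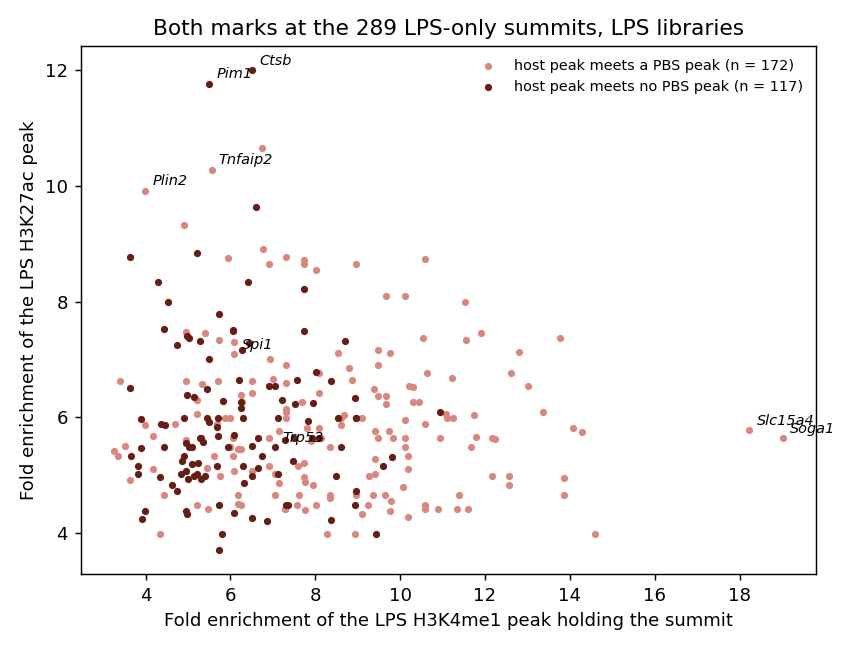
Each point is 1 of the 289 LPS-only summits, placed by the fold enrichment of the LPS H3K4me1 peak holding it (horizontal) and of its LPS H3K27ac peak (vertical), and coloured by whether that H3K4me1 peak met a PBS peak elsewhere along its length. Pim1 and Ctsb stand highest for H3K27ac with modest H3K4me1, Soga1 and Slc15a4 farthest right, and none exceeds 10 on both axes.

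The 5 strongest H3K4me1 peaks holding LPS-only summits had H3K27ac fold enrichments from 3.99 to 5.82, beside a median of 5.67 over all 289. The one in an intron of Slc15a4, a lysosomal transporter gene needed for signalling by endosomal Toll-like receptors, was 6115 bp wide and had a fold enrichment of 18.2 with 58 fragments. The H3K27ac fold enrichment there was 5.78. At Soga1 the H3K4me1 fold enrichment was 19.0 and that of H3K27ac 5.64. H3K4me1 peaks in introns of Hivep3 (a zinc finger gene), Ston2 (an endocytic adaptor) and in a non-coding exon of Vps13d (a lipid transfer protein) had fold enrichments between 14.1 and 14.6, and the H3K27ac values there were 3.99, 5.82 and 5.75. In all 5, a PBS H3K4me1 peak lay between 45 and 310 bp from the H3K27ac summit, and the LPS peak met it.

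Most LPS-only summits lay beside H3K4me1 already present under PBS. A PBS H3K4me1 peak was within 100 bp of 89 summits (30.8%, 95% Wilson interval 25.8 to 36.3%), within 500 bp of 208 (72.0%, 66.5 to 76.8%) and within 1000 bp of 240 (83.0%, 78.3 to 86.9%). The median distance was 241 bp (179 to 280 bp), with a range of 1 to 93551 bp. Of unmarked distal summits, 231 of 1696 (13.6%, 12.1 to 15.3%) had a PBS peak within 500 bp.

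The LPS peak itself often reached into PBS H3K4me1. It met a PBS peak somewhere along its length for 172 of the 289 summits (59.5%, 53.8 to 65.0%). For 61 of them (21.1%, 16.8 to 26.2%) it met PBS peaks on both sides of the summit and so spanned a gap in PBS H3K4me1, and for 111 (38.4%) it met PBS H3K4me1 on 1 side. The LPS peak met no PBS peak for 117 summits (40.5%). The 289 summits lay in 280 LPS H3K4me1 peaks, of which 113 (40.4%, 34.8 to 46.2%) met no PBS peak. Over the whole LPS H3K4me1 list this share was 38.8%. The choice of summits required a base outside PBS H3K4me1, which the whole list did not, so these shares cannot be compared directly. PBS peaks stood within 1000 bp on both sides of 133 LPS-only summits (46.0%), and the gap between them had a median width of 532 bp (425 to 691 bp).

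The mirror class looked alike. Of 220 PBS-only summits, 165 (75%, 68.9 to 80.3%) had an LPS H3K4me1 peak within 500 bp, at a median of 190.5 bp, and the PBS peak around 142 of them (64.5%, 58.0 to 70.6%) met an LPS peak. LPS-only summits made up 289 of 1043 distal summits in LPS H3K4me1 (27.7%, 25.1 to 30.5%), and PBS-only summits 220 of 974 in PBS H3K4me1 (22.6%, 20.1 to 25.3%). Of the bases covered by LPS H3K4me1 peaks, 46.5% lay outside PBS peaks. Among H3K27ac summits at promoters, 182 lay in an LPS H3K4me1 peak, and 113 of those 182 (62.1%, 54.9 to 68.8%) were in no PBS peak. This is a share of promoter summits in LPS H3K4me1, not of all promoter summits.

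**Figure D2:**
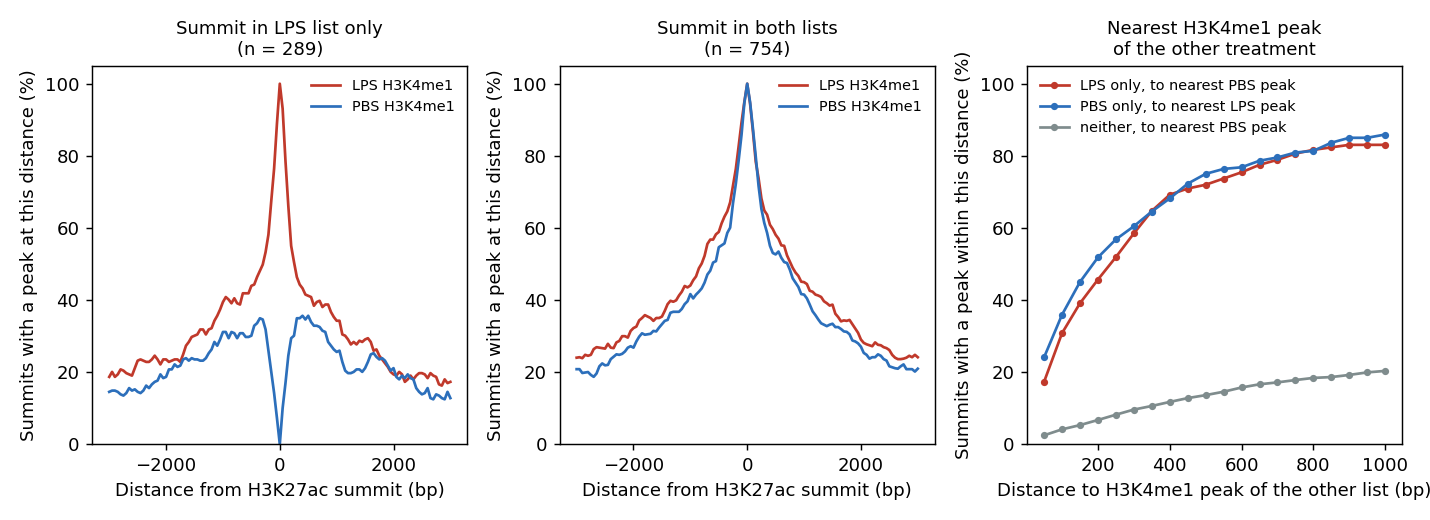
Left and middle panels, share of summits (%) covered by an LPS or PBS H3K4me1 peak at each distance (bp) from the H3K27ac summit, for the 289 LPS-only and the 754 shared summits. Right panel, share of LPS-only, PBS-only and unmarked summits with an H3K4me1 peak of the other treatment (PBS for unmarked summits) within a distance of up to 1000 bp. PBS coverage is 0 at the LPS-only summit by its definition and 31.8% and 30.1% at 250 bp on its left and right, and the LPS-only and PBS-only curves run together.

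Around the LPS-only summits, LPS H3K4me1 covered 53.3% and 50.5% of positions 250 bp to the left and right, and PBS H3K4me1 31.8% and 30.1%. At 1000 bp the LPS values were 39.4% and 34.3% and the PBS values 31.1% and 25.6%. The difference between treatments was thus largest at the summit, where it was fixed by the choice of summits, and narrowed outward. Around shared summits PBS coverage at 250 bp was 66.8% and 65.3%.

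A good number of summits lay close to the peak edges that set their class. Of LPS-only summits, 50 lay within 50 bp outside a PBS peak, the nearest at Trappc3 at 1 bp and in Ipo9 and Kif5c at 3 bp each. Of shared summits, 78 lay within 50 bp inside a PBS peak edge, the nearest at 1 bp. Likewise 52 LPS-only summits (18%, 14.0 to 22.8%) were within 50 bp of the edge of their LPS peak, against 79 of 754 shared summits (10.5%, 8.49 to 12.9%), and 39 unmarked summits were within 50 bp outside an LPS peak.

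H3K4me1 under LPS was weaker at LPS-only than at shared summits. The LPS peak holding an LPS-only summit had a median fold enrichment of 7.13 (6.65 to 7.52), a width of 612 bp (532 to 716 bp) and 20 fragments (20 to 22; range 10 to 58). At shared summits the medians were 8.35, 987 bp and 26 fragments. The PBS peak nearest to an LPS-only summit had a median of 19 fragments. When the 1043 summits in LPS H3K4me1 were ordered by the −log10 q of that peak and cut into 5 equal groups, 93 of 209 in the weakest group were LPS-only (44.5%, 37.9 to 51.3%) and 31 of 209 in the strongest (14.8%, 10.7 to 20.3%). These are values that the choice of summits used.

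Within the LPS-only summits, those whose LPS peak met PBS H3K4me1 sat in wider and stronger peaks. The median was 985 bp and 24 fragments for those 172, and 329 bp and 16 fragments for the 117 whose peak met none. H3K27ac hardly differed between them, with median fold enrichments of 5.77 and 5.65 and 9 fragments in each.

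**Figure D3:**
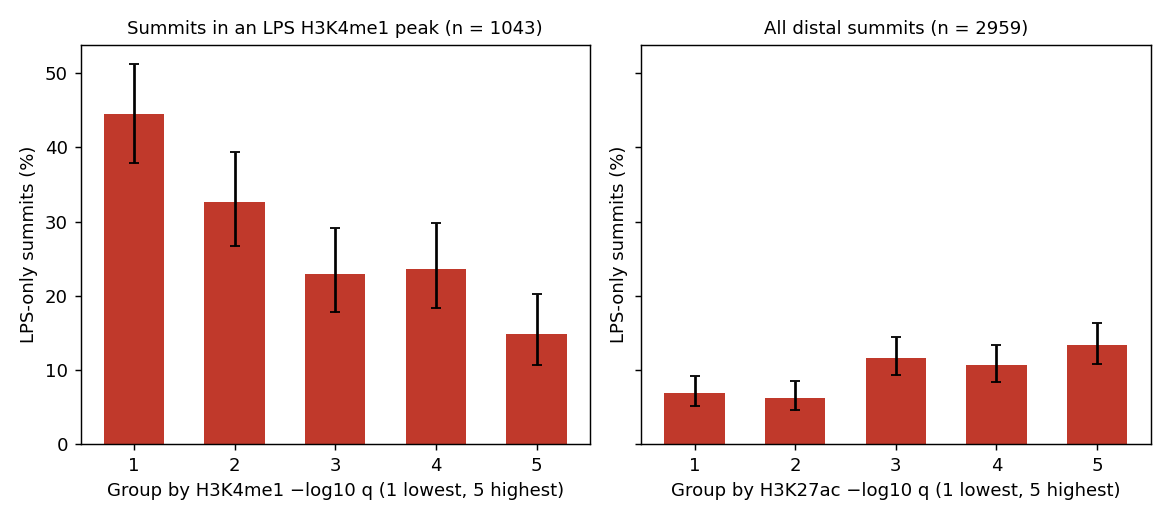
Share of LPS-only summits (%) by significance, from group 1 (lowest) to group 5 (highest), with 95% Wilson intervals. The left panel orders the 1043 distal summits in an LPS H3K4me1 peak by the −log10 q of that peak, and the share falls from 44.5% to 14.8%. The right panel orders all 2959 distal summits by H3K27ac −log10 q, and the share goes from 6.93% to 13.3%.

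H3K27ac entered the choice of summits only through the call of the peak, with the same limit on −log10 q in every class. Acetylation at LPS-only summits was at the level of shared ones. Median fold enrichment was 5.67 (5.63 to 5.90; range 3.71 to 12.0) at LPS-only, 5.64 (5.49 to 5.84) at shared and 5.78 (5.50 to 5.96) at PBS-only summits, intervals that overlap, and 5.16 at unmarked summits. Fragments at the summit had a median of 9 (range 5 to 20) at LPS-only summits, 9 at shared, 9 at PBS-only and 7 at unmarked summits. Peak width followed, at 156, 157, 162.5 and 139 bp. A −log10 q of at least 5 was reached by 86 of 289 LPS-only summits (29.8%, 24.8 to 35.3%), against 26.3% of all 4200 peaks, 31.7% of shared, 30.5% of PBS-only and 16.7% of unmarked summits. The median summit rested on 9 fragments, which limits the precision of any single peak.

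With all 2959 distal summits cut into 5 equal groups by H3K27ac −log10 q, the LPS-only share was 6.93% (5.15 to 9.26%) in the weakest and 13.3% (10.8 to 16.3%) in the strongest. Of all 4200 LPS H3K27ac peaks, 15 (0.357%) met a peak of the PBS H3K27ac list, which with 52 peaks could hold few. Among LPS-only summits 1 did so (0.346%, 0.0611 to 1.93%). It was an intergenic summit 44212 bp from the TSS of Cables1, with a fold enrichment of 4.56 and 6 fragments, 17 bp from a PBS H3K4me1 peak. The count being 1, it is named after its values were seen.

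LPS-only summits clustered with further acetylation. Another LPS H3K27ac peak lay within 5 kb of 131 (45.3%, 39.7 to 51.1%), compared with 45.5% (39.0 to 52.1%) of PBS-only, 37.3% (33.9 to 40.8%) of shared and 20.4% (18.6 to 22.4%) of unmarked summits. A median of 4 PBS H3K4me1 peaks fell in the same 5 kb on either side.

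A small group stood apart from any PBS H3K4me1. For 16 of the 289 (5.54%, 3.44 to 8.80%) no PBS peak lay within 5 kb, against 1022 of 1696 unmarked summits (60.3%). The LPS H3K4me1 peaks there were small, 307 bp wide at the median (range 147 to 763 bp), a fold enrichment of 5.82 and 13.5 fragments, and 10 of the 16 reached a −log10 q of 5. H3K27ac there had a median fold enrichment of 5.81 (range 4.36 to 8.34). The farthest, chr11:69585898-69586038, was in an intron of Trp53, the tumour suppressor p53, 93551 bp from PBS H3K4me1. It had an H3K27ac fold enrichment of 5.49 with 10 fragments, and its H3K4me1 peak had 7.05 with 17. The next were in a non-coding exon within 6430550D23Rik and Cep250, a centrosome protein gene, at 64675 bp, and in an intron of Gstm3, a glutathione S-transferase gene, at 48191 bp.

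Others of the 16, singled out after their values were seen, lay in introns of Irf2, an interferon regulatory factor, at 45431 bp, of Sik3, a salt-inducible kinase, at 9466 bp, and next to Fnip2, where a pair of summits lay 7872 and 8474 bp from PBS H3K4me1. The Fnip2 summit at chr3:79572903-79573066 had the highest H3K4me1 fold enrichment of the 16, 8.96, with 20 fragments.

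**Figure D4:**
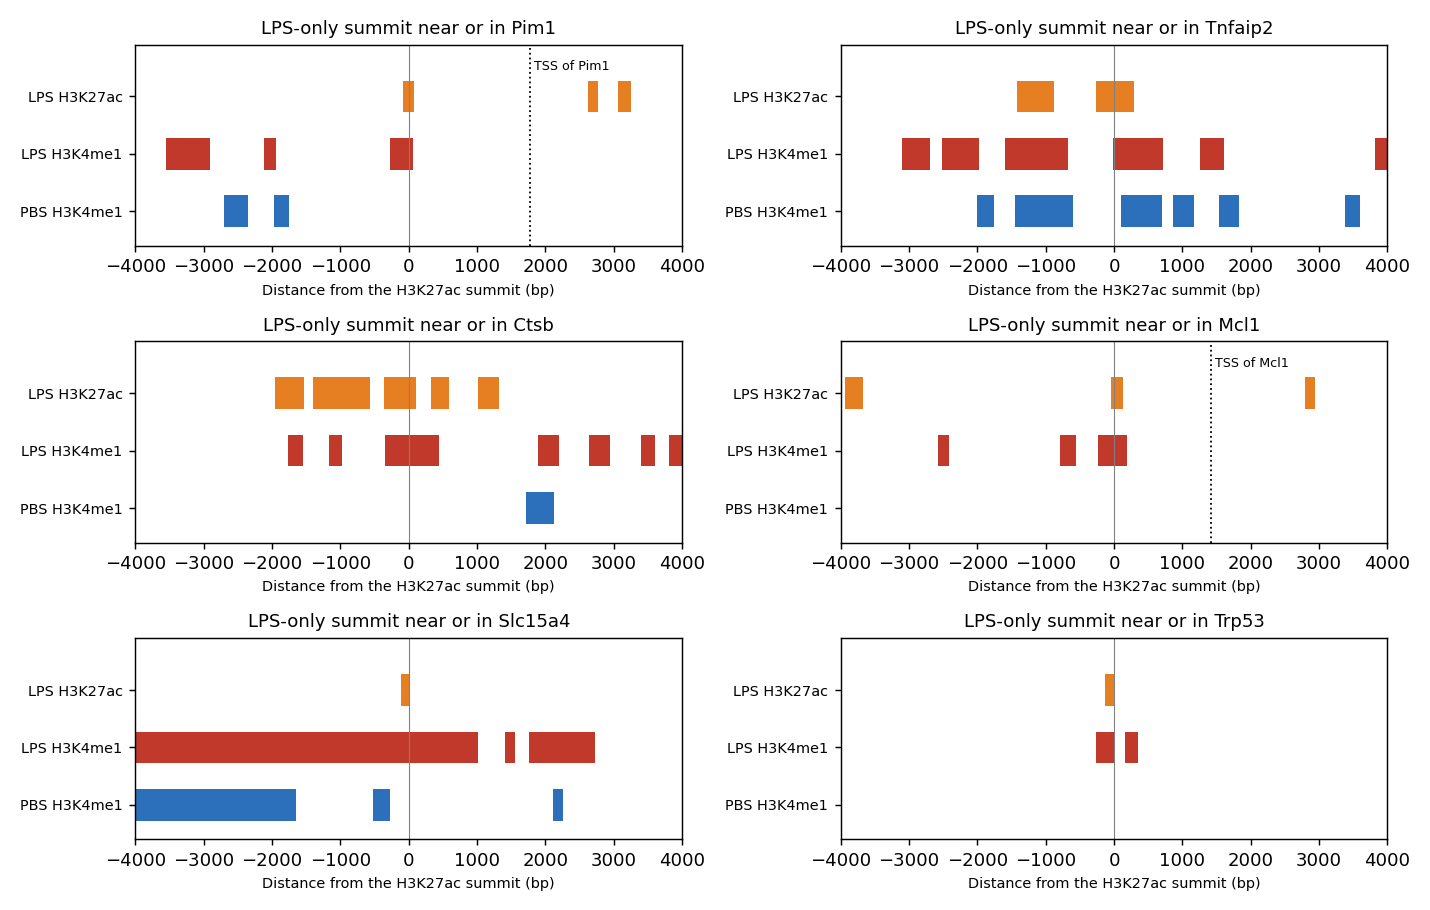
Peaks of LPS H3K27ac, LPS H3K4me1 and PBS H3K4me1 within 4000 bp of 6 LPS-only summits, drawn to scale as bars by distance (bp) from the H3K27ac summit, with protein-coding TSSs as dotted lines. PBS H3K4me1 starts 98 bp from the Tnfaip2 summit and is 1710 bp and 1756 bp away at Ctsb and Pim1. It is absent from the windows at Mcl1 and Trp53. At Slc15a4 a single wide LPS peak covers the summit and the PBS peaks to its left. The PBS peak to its right lies beyond that LPS peak.

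Genes of the early LPS response were looked for within 50 kb. Of 55 primary LPS response genes, 5 had an LPS-only summit in that distance (9.09%, 3.95 to 19.6%): Pim1, Tnfaip2, Tnfaip3, Mcl1 and Ptpn1. Of all 22028 protein-coding genes 1.96% had one. The corresponding shares for distal summits of any class were 41.8% (23 of 55) and 12.7%, so nearness to these genes was shared by distal acetylation as a whole. Of 59 distal summits near primary response genes, 8 were LPS-only (13.6%, 7.03 to 24.5%), 12 shared, 13 PBS-only and 26 unmarked, compared with 9.77% LPS-only among all distal summits.

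Mcl1, an anti-apoptotic BCL2 family gene, had 4 LPS-only summits, at 1419, 14608, 15276 and 27313 bp from its TSS. Their H3K27ac fold enrichments were low, between 3.71 and 4.99. The nearest, chr3:95657326-95657495, had no PBS H3K4me1 within 4769 bp, and 72.8% of the 401 bp around it was repeat-masked. The farthest lay in an untranslated exon of Ensa, its nearest protein-coding gene. The pair between them shared 1 LPS H3K4me1 peak, and its nearest protein-coding gene was Adamtsl4 rather than Mcl1. Near Mcl1 there were also 3 shared, 2 PBS-only and 6 unmarked summits, so that LPS-only summits were 4 of 15.

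Tnfaip3 encodes A20, an enzyme that restrains NF-kB signalling. Its LPS-only summit, chr10:19061368-19061664, was intergenic at 45835 bp, with a fold enrichment of 7.33 and 10 fragments, and PBS H3K4me1 was 1768 bp away. The Ptpn1 summit, in an intron of that tyrosine phosphatase gene at 27363 bp, had a fold enrichment of 6.27, and PBS H3K4me1 was 267 bp away. Near Tnfaip3 there were also PBS-only summits with fold enrichments of 9.99 and 8.66, and unmarked summits with 5.47, 5.99 and 5.90. Near Ptpn1, PBS-only summits at 26956 and 5914 bp had 6.51 and 4.32, and a shared summit at 28230 bp had 5.21. Near Tnf itself, the gene the study followed, the list held 1 PBS-only and 1 unmarked distal summit and no LPS-only summit within 50 kb.

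Of 34 macrophage identity genes, 2 had an LPS-only summit within 50 kb (5.88%, 1.63 to 19.1%), Ctsb and Spi1, beside 1.96% of all protein-coding genes. Spi1 encodes PU.1, and its summit, chr2:91085451-91085819, lay in its own intron 3304 bp from the TSS, with a fold enrichment of 7.09 and 13 fragments, inside a 2371 bp LPS H3K4me1 peak that met PBS H3K4me1 569 bp from the summit. Distal summits of any class were near 16 of these 34 genes. None of 33 late or interferon response genes (at most 10.4% by the Wilson limit) and none of 29 TLR4 signalling genes (at most 11.7%) had an LPS-only summit within 50 kb, while 15 and 11 of them had a distal summit of some class. At the share of 1.96% over all genes, lists of this length would hold fewer than 1 such gene. Of the 16 and 18 distal summits near these lists, 0 were LPS-only (at most 19.4% and 17.6%), beside 9.77% over all distal summits. Both limits include that share, so these counts of 0 are uninformative. None of the 11 lymphocyte, 10 granulocyte, 10 fibroblast and 30 other tissue genes had one either.

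Several genes were nearest to more than 1 LPS-only summit, and the following were picked out after these counts were seen. The 289 summits had 253 nearest protein-coding genes, of which 32 (12.6%) were nearest to 2 or more. Ankdd1a was nearest to 4 intergenic summits between 12994 and 22445 bp from its TSS, with fold enrichments from 3.99 to 6.49 and PBS H3K4me1 between 122 and 726 bp away. Ctsb and Frmd4b had 3 each. Those at Frmd4b were intronic, 160351 to 175992 bp from the TSS, and their LPS H3K4me1 peaks were among the stronger ones, with 26, 31 and 33 fragments.

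Some of the 29 genes with 2 LPS-only summits follow as examples, with no count of such genes behind their roles. Both summits of Tifa, an adaptor that activates TRAF6, were 2582 and 3367 bp away with fold enrichments of 4.39 and 6.22, and those of Pik3ap1, an adaptor of PI3-kinase, were both intronic at 4.51 and 7.53. Atp6v0c, a subunit of the proton pump of lysosomes, had summits at 2081 and 2413 bp in the same LPS H3K4me1 peak, with fold enrichments of 7.40 and 4.32. Plin2 had them at 6443 and 19359 bp with 5.99 and 9.92, and Fth1, the ferritin heavy chain, at 1526 and 36612 bp with 5.46 and 4.49. At Piezo1, a mechanosensitive channel gene, 2 intronic summits with 8.21 and 7.49 shared an LPS H3K4me1 peak that met no PBS peak. In all, 18 of the 289 summits shared their LPS H3K4me1 peak with another, 2 to each of 9 peaks.

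By annotation, 176 LPS-only summits were intronic (60.9%, 55.2 to 66.3%), 98 intergenic (33.9%, 28.7 to 39.5%), 11 in non-coding exons, 4 in untranslated exons and 0 in coding exons. Introns held 59.3% of shared, 58.2% of PBS-only and 50.9% (48.6 to 53.3%) of unmarked summits. The nearest protein-coding TSS was at a median of 22659 bp (18980 to 28315 bp), compared with 24942 bp for shared, 19140.5 bp for PBS-only and 39561.5 bp for unmarked summits. LPS-only summits were within 10 kb of such a TSS in 90 cases (31.1%, 26.1 to 36.7%), beside 22.7% (19.8 to 25.8%) of shared, 30% (24.3 to 36.4%) of PBS-only and 25.9% of unmarked summits. Beyond 100 kb lay 10.7% of LPS-only and 32.0% of unmarked summits.

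Base composition set LPS-only summits with the other H3K4me1-marked classes. Over 401 bp the median G+C content was 47.6% (46.6 to 48.6%) at LPS-only and 47.6% at shared summits, 46.1% at PBS-only and 43.6% (43.4 to 44.1%) at unmarked ones. Median CpG counts were 5 (4 to 5), 4, 4 and 3. Repeat-masked bases made up at least 50% of the sequence at 17 LPS-only summits (5.88%, 3.70 to 9.22%), at 3.98% of shared, 8.18% of PBS-only and 16.2% (14.5 to 18%) of unmarked summits.

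No LPS-only summit was on chromosome X, which held 47 distal summits. A count of 0 of 47 has a Wilson upper limit of 7.56%, and the autosomal share was 9.92% (8.89 to 11.1%). Of those 47, 1 was shared, 7 PBS-only and 39 unmarked. Thus only the shared summit lay in an LPS H3K4me1 peak, too few to give a share among such summits on this chromosome. The paper states that all mice used were male. Among the autosomes the share of LPS-only summits was highest on chromosome 19, at 18 of 104 (17.3%), and chromosome 17, at 21 of 142 (14.8%). It was lowest on chromosome 18, at 5 of 92 (5.43%). These chromosomes were picked after the shares were seen, and differences between chromosomes were not tested.

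Motif words occurred at LPS-only summits about as often as at shared ones. AGGAAGT was within 200 bp of 63 (21.8%, 17.4 to 26.9%), against 23.9% of shared, 25.9% of PBS-only, 13.1% (11.6 to 14.8%) of unmarked summits and 16.3% of all 4200 H3K27ac summits. TGANTCA was at 52 (18%, 14.0 to 22.8%), with 22.1% at shared, 20.9% at PBS-only and 14.2% at unmarked summits and 14.7% over all. TTGCNNAA was at 48 (16.6%, 12.8 to 21.3%), with 15.9% at shared, 22.7% at PBS-only and 18.2% at unmarked summits and 16.2% over all. GGANTTNCC was at 22 (7.61%, 5.08 to 11.3%), with 7.16% at shared, 6.82% at PBS-only, 4.30% (3.44 to 5.38%) at unmarked summits and 5.79% over all.

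GAAANNGAA was at 54 LPS-only summits (18.7%, 14.6 to 23.6%; 15.6% over all) and GGAANNGAA at 46 (15.9%, 12.2 to 20.6%; 14.2% over all). TCACGTG was at 4 (1.38%; 2.74% over all) and TGACGTCA at 2 (0.692%; 0.810% over all). No word of the list was found at 102 (35.3%, 30.0 to 41.0%), compared with 31.6% of shared, 28.6% of PBS-only and 41.6% of unmarked summits. For every word, the interval at LPS-only summits overlapped that at shared summits.

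**Figure D5:**
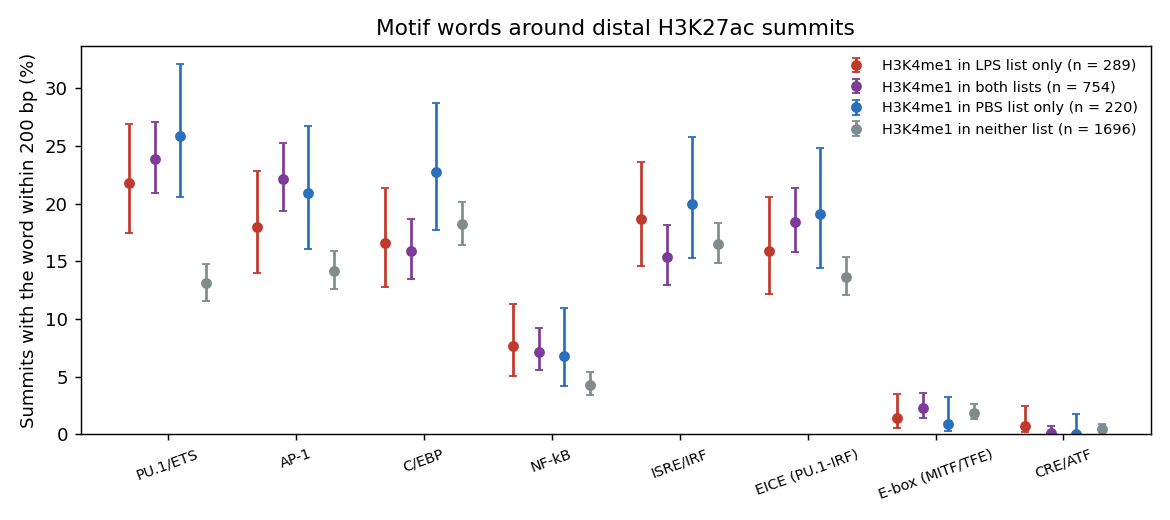
Share of distal H3K27ac summits (%) with each motif word within 200 bp, by H3K4me1 class, with 95% Wilson intervals. Intervals at LPS-only summits overlap those at shared and PBS-only ones for each word. The C/EBP word is at 16.6% of LPS-only, 22.7% of PBS-only and 18.2% of unmarked summits. The PU.1/ETS word is lowest at unmarked summits, at 13.1% against 21.8% at LPS-only summits.

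The distance of words from the summit rests on small counts, and differences between motifs were not tested. Of 63 LPS-only summits with AGGAAGT, 8 (12.7%) had it within 50 bp, beside 22.8% of shared summits with it and 19.0% over all 4200, and the median distance was 114 bp. For TGANTCA the share within 50 bp was 17.3% at LPS-only summits, 15.6% at shared ones and 21.2% over all, with a median of 120.5 bp. For TTGCNNAA it was 27.1% (13 of 48), 22.5% and 22.2%, with a median of 81.5 bp. At LPS-only summits it was 22.7% (5 of 22) for GGANTTNCC, 20.4% (11 of 54) for GAAANNGAA and 17.4% (8 of 46) for GGAANNGAA.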

How the data were processed

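According to the methods, the authors aligned the trimmed read pairs to the GRCm38 genome with Bowtie2 (2.4.4 in the submitters' processing notes), removed blacklisted regions and called peaks per library with MACS2 (2.2.7.1). Whether the IgG libraries served as control is not given in the sources used here. The deposited lists give each peak's position, summit, fold enrichment (a ratio computed by the authors' peak caller), −log10 p and −log10 q. The deposited score, a whole number made from q, was not used. The smallest −log10 q in each list was just above 2.

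Groups were taken from sample titles. A summit was inside a peak when its base was. Fold enrichment and q were compared only within a list. Fragments at a summit were recovered from fold enrichment and p, assuming MACS2's pseudocount of 1 and Poisson p. This returned the deposited p within 0.002 for 100% of peaks in 3 lists and 99.9985% in the PBS H3K4me1 list, and was tested on simulated data. TSSs came from GENCODE M21 gene records, an earlier release of the GRCm38 annotation than the authors' one. Sequence, words and composition (200 bp on either side of a summit) came from RefSeq GRCm38.p6 with pysam 0.24.0 and numpy 2.4.6. Shares have 95% Wilson intervals and medians order-statistic intervals.

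The summits, lists and motif words were chosen with earlier results of these data known. Named by rule were the 10 summits of highest H3K27ac −log10 q, the 5 of highest H3K4me1 −log10 q, those within 50 kb of genes of the primary LPS response, macrophage identity, late or interferon response and TLR4 signalling lists, and the 3 nearest to and 3 farthest from PBS H3K4me1, 30 in all. Sequences were a selection of the summits this rule gave, plus the 2 said to be picked otherwise, and the 300 bp windows were set after the words were seen. Of 35 late response and 12 lymphocyte genes listed, 33 and 11 were found. There were 10 alternatives.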

Additional observations from a re-analysis of the deposited data

How the results depend on the processing

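No paired analysis was possible because each group was 1 library, and no replicate could be left out for the same reason. Over 10 alternatives, 6 main results moved beyond their interval, or by over 1.5 times for a count, in 19 cases and held in 41. These are levels at the LPS-only summits, and the comparisons with other classes were not rerun under the alternatives. Extending PBS H3K4me1 peaks by 500 bp left 81 LPS-only summits (2.74% of distal summits), 3 primary response genes near them and, by construction, 0% with a PBS peak within 500 bp. Requiring that the LPS H3K4me1 peak met no PBS peak left 117 (4.20%) with 3 such genes, and 37.6% had a PBS peak within 500 bp. An H3K27ac −log10 q of at least 5 left 86 (12.7% of distal summits at that limit) with 3 such genes, of which 70.9% were intronic and 66.3% had a PBS peak within 500 bp, and raised the median fold enrichment to 7.27, as the limit itself selects strong peaks. A −log10 q of at least 5 for LPS H3K4me1 gave 7.30%, 3 genes and 77.8% with a PBS peak within 500 bp. The same limit in both H3K4me1 lists gave 84.4%, and counting any overlap of the H3K27ac peak in place of its summit gave 59.6%. Beyond the effects of construction named here, the cause was not tested. A wider TSS window, TSSs of every transcript, an LPS list shortened to the PBS number and autosomes alone moved none of the 6. Of 70 other values, 64 held and 6 moved. Among those 6 was the AGGAAGT share. It was 17.1% (11.3 to 24.9%) where the LPS H3K4me1 peak met no PBS peak, beside 21.8% in the main setting. Under every other alternative that share held. The median LPS-only summit had 9 H3K27ac fragments, which limits what can be said of single regions.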
